A study of Mus musculus with 6 samples.

Results

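The genes described here are 10 genes of platelets and of megakaryocytes, the bone marrow cells that make platelets, out of the 45777 genes measured in mouse heart. They were taken by gene symbol as Pf4, Ppbp, Itga2b, Itgb3, Gp1ba, Gp1bb, Gp5, Gp9, Treml1 and Tubb1, and were chosen with their levels in these libraries known. Their levels and ratios are therefore given as a description, with no test. All 10 had counts in all 6 libraries, and all 10 passed the filter of a mean of at least 10 counts that left 18328 of the 26776 genes with a count.

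Hearts were taken from female mice of the BALB/c nude strain (CAnN.Cg-Foxn1nu/Crl), with an age given as 6 weeks, which the study's methods place before the treatment. These mice lack a thymus and were carrying human MDA-MB-231 breast cancer xenografts, so the Control animals bore tumours too. The 6 conditions were the vehicle group (Control), ginsenoside Rh2 at 20 or 30 mg/kg each day, doxorubicin (Dox) at 2 mg/kg every other day to 22 mg/kg in all, and each Rh2 dose with Dox, over a treatment course of 3 weeks in mice divided into groups on day 7 after the tumour cells were injected. Ginsenoside Rh2 is a ginseng saponin, and doxorubicin is an anthracycline used against breast cancer that damages the heart and the bone marrow. Each condition was 1 library from 5 pooled hearts, so no value has a replicate, and variation between animals cannot be seen. Libraries were made by RNA capture (SureSelect XT RNA Direct), and 1 passage of the study's methods calls the mice wild-type BALB/c. The sources used here do not state whether blood was washed out of the hearts.

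Platelets are small cells without a nucleus that carry RNA made by their parent megakaryocytes. They stop bleeding by binding von Willebrand factor through the glycoprotein Ib-IX-V complex and fibrinogen through the integrin of Itga2b and Itgb3, and by releasing granules that hold the chemokines Pf4 and Ppbp. Heart muscle itself makes little of these RNAs, and transcripts of blood cells reach a heart sample with the blood and the cells it holds. In RNA from whole pooled hearts, more platelets or megakaryocytes and more of these RNAs per cell cannot be told apart.

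The 4 glycoproteins of the von Willebrand factor receptor are encoded at separate places in the genome, on chromosomes 6, 11 and 16. Their upper 3 places in the order of libraries were those of all 10 members. As a description, the 250 bases before the start of a transcript of each of the 4 are printed, with those of Pf4 for comparison. For Gp9 and Gp1ba the annotated span of the gene begins upstream of the start used, so all of the Gp9 window and the end of the Gp1ba window lie within that span. The sequences are those of RefSeq for GRCm38.p6, the assembly of mm10, in the 5′ to 3′ direction of each gene. Capitals mark letters of 2 motifs that factors of the megakaryocyte lineage are known to bind, searched on both strands. These are GATA motifs (AGATAA or AGATAG or TGATAA or TGATAG) and ETS motifs (AGGAAG or CGGAAG).
Gp1ba (chr11:70638872-70639121, plus strand): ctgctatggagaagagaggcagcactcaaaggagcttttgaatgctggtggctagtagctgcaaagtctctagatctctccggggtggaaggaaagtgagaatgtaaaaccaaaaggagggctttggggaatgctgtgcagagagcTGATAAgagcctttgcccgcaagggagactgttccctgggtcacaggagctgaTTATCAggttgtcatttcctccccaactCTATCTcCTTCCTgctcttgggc
Gp1bb (chr16:18622404-18622653, minus strand): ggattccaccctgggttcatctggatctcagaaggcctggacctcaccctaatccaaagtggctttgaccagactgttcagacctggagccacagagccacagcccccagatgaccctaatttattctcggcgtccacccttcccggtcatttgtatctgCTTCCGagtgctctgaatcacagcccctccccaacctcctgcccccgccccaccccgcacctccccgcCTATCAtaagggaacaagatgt
Gp5 (chr16:30310782-30311031, minus strand): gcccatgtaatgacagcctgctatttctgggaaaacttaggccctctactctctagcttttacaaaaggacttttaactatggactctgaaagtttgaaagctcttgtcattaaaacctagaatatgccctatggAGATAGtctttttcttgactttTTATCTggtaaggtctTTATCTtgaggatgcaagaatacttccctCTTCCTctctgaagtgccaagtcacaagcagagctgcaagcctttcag
Gp9 (chr6:87777820-87778069, plus strand): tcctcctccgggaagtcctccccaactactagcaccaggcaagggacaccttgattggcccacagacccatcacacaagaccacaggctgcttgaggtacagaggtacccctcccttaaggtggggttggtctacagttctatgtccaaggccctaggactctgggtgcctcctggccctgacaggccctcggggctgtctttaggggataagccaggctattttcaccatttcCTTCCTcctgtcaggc
Pf4 (chr5:90772185-90772434, plus strand): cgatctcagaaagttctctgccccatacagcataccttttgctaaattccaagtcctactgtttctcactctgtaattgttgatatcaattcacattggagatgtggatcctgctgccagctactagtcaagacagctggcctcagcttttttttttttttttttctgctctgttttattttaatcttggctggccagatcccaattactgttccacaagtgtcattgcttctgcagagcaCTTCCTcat
Of the 9 members with a sequence in the table (Itgb3 had none), 3 held a GATA motif in this window, against 26.5% of 32851 promoters. These 3 were Gp1ba with 3 matches, Gp1bb with 1 and Gp5 with 3. Gp9, of the same receptor, had none, as was so for the rest of the 9. An ETS motif was found in 7 of the 9, against 39.2% of promoters, with Ppbp and Treml1 as the exceptions. Both motifs stood in the windows of 3 of the 9 (Gp1ba, Gp1bb and Gp5), against 9.20% of all promoters. For 7 of the 9, bases after the start used were found near the start of a transcript in the GENCODE annotation. For Gp5 and Tubb1 they were not, so the places of these windows are less certain. A match of letters is a description and does not show that a factor binds.

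The libraries held 86164411 to 90621002 counts. Heart muscle markers such as Myh6 and Tnnt2 were high in all 6. The lung marker Sftpc was at 0 in all 6, but other lung markers were not. The summed level of 6 lung genes in CPM was 1.52 in Control, 0.466 (20 mg/kg) and 8.74 (30 mg/kg) with Rh2 alone, 1.64 with Dox alone, and 1.13 (20 mg/kg) and 0.587 (30 mg/kg) with Rh2 plus Dox. Up to 4 of the 6 were at 0 in a library, and Scgb1a1 had 730 counts in Rh2-30 mg/kg. The libraries also differed in markers of heart chamber and of blood. The summed level of 4 atrial genes (Myl7, Myl4, Nppa and Sln) in CPM, the count scaled to the size of the library after TMM normalization, was 45.7 in Control, 62.0 (20 mg/kg) and 1662 (30 mg/kg) with Rh2 alone, 378 with Dox alone, and 403 (20 mg/kg) and 75.2 (30 mg/kg) with Rh2 plus Dox. Sln was at 0 in Rh2-30 mg/kg + Dox. The summed level of 9 erythroid genes, the hemoglobins among them, in CPM was 3685 in Control, 2667 (20 mg/kg) and 3369 (30 mg/kg) with Rh2 alone, 10646 with Dox alone, and 5975 (20 mg/kg) and 1682 (30 mg/kg) with Rh2 plus Dox, with none of the 9 at 0. Their part in the levels of the platelet genes was not tested, and their values are set beside the results that they move with.

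All 10 platelet genes had their highest level in Rh2-20 mg/kg + Dox, as 8.82% of tested genes did, the next in Dox and the third in Rh2-30 mg/kg, and Control, Rh2-20 mg/kg and Rh2-30 mg/kg + Dox held the 3 lowest places. Dox and Rh2-20 mg/kg + Dox, in either order, above Rh2-30 mg/kg and that library above the other 3, which is called the platelet order here, was seen in 414 of the 18328 genes tested, or 2.26%. Summed over the 10 genes, the counts were 2744 in Control, 2896 (20 mg/kg) and 6183 (30 mg/kg) with Rh2 alone, 16425 with Dox alone, and 27784 (20 mg/kg) and 2308 (30 mg/kg) with Rh2 plus Dox. In CPM these sums were 32.9 in Control, 32.2 (20 mg/kg) and 65.2 (30 mg/kg) with Rh2 alone, 195 with Dox alone, and 303 (20 mg/kg) and 26.6 (30 mg/kg) with Rh2 plus Dox. The sum was thus higher in Dox than in Control by a wide margin, and highest of all with the lower Rh2 dose added, while with the higher Rh2 dose added it was below Control. The lowest library was Rh2-30 mg/kg + Dox for 7 genes, as for 23.2% of tested genes, and Rh2-20 mg/kg for Itga2b, Gp1bb and Gp9. From the lowest to the highest library the level differed 8.06-fold for Pf4, 8.22-fold for Itgb3 and 24.1-fold for Gp9, which were the smallest 2 and the largest of the 10.

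**Figure D1:**
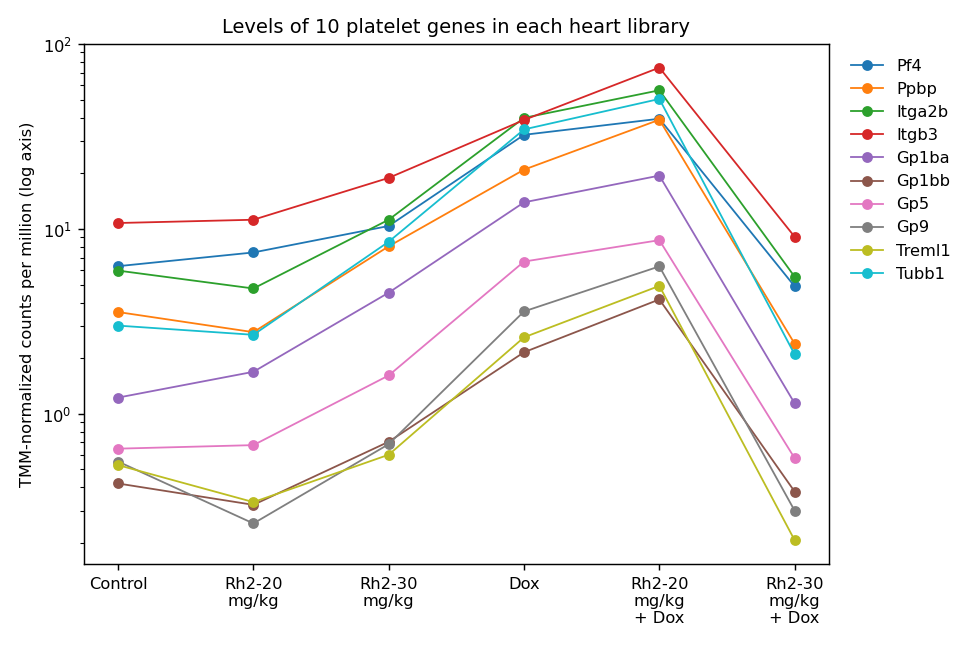
Level of each of the 10 platelet genes in the 6 heart libraries, as TMM-normalized CPM on a log axis, with 1 point per library and lines that only join the points of a gene. All 10 lines peak at Rh2-20 mg/kg + Dox and are low in Control, Rh2-20 mg/kg and Rh2-30 mg/kg + Dox, and the summed level goes from 26.6 to 303 CPM.

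The granule chemokines are encoded side by side on chromosome 5, Ppbp at chr5:90768518-90770063 and Pf4 at chr5:90772435-90773383, with 2371 bases between them (RefSeq, GRCm38.p6). Pf4, platelet factor 4, is a heparin-binding chemokine of the alpha granules, and some macrophages also make it. It had counts of 524 in Control, 672 (20 mg/kg) and 984 (30 mg/kg) with Rh2 alone, 2714 with Dox alone, and 3616 (20 mg/kg) and 425 (30 mg/kg) with Rh2 plus Dox. The Dox library and its combination with the lower Rh2 dose stood apart from the other 4, which lay between 425 and 984. Its log2 ratio to Control was 2.36 in Dox and 2.65 with Rh2 at 20 mg/kg plus Dox. The 95% intervals of these were 2.22 to 2.50 and 2.52 to 2.78 from counting error alone, and 1.67 to 3.05 and 1.96 to 3.34 once the dispersion between libraries was added. That dispersion was a single value taken over the 6 libraries without regard to group, and the wider intervals are the ones given from here on.

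Ppbp, pro-platelet basic protein, is the precursor of the neutrophil-attracting chemokine Cxcl7. Its counts were 296 in Control, 249 (20 mg/kg) and 764 (30 mg/kg) with Rh2 alone, 1759 with Dox alone, and 3571 (20 mg/kg) and 208 (30 mg/kg) with Rh2 plus Dox. Pf4 was higher in Rh2-20 mg/kg than in Control, and Ppbp was lower there, both by less than the wider interval. In Dox the log2 ratio of Ppbp to Control was 2.56 (1.86 to 3.25), and with Rh2 at 20 mg/kg added it was 3.45 (2.76 to 4.15). Ppbp differed more widely between libraries than its neighbour, 16.2-fold from lowest to highest. Pf4 had the smaller ratios to Control of the pair in all 3 of the libraries with the highest levels. The summed level of 10 macrophage markers in CPM was 466 in Control, 598 (20 mg/kg) and 706 (30 mg/kg) with Rh2 alone, 449 with Dox alone, and 595 (20 mg/kg) and 387 (30 mg/kg) with Rh2 plus Dox, with none at 0. Of the 10, 7 were highest in Rh2-30 mg/kg, as 26.1% of tested genes were. In Rh2-20 mg/kg + Dox, where Pf4 was highest, 2 were highest, as 8.82% of tested genes were. The part of macrophages in the Pf4 level was not tested.

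Itga2b and Itgb3 encode the α and β chains of the integrin that binds fibrinogen and links platelets to each other. Both genes lie on chromosome 11, Itga2b at chr11:102453297-102469883 and Itgb3 at chr11:104608000-104670476. Itga2b is made in the megakaryocyte lineage, and its counts were 496 in Control, 429 (20 mg/kg) and 1064 (30 mg/kg) with Rh2 alone, 3352 with Dox alone, and 5153 (20 mg/kg) and 479 (30 mg/kg) with Rh2 plus Dox. Control, Rh2-20 mg/kg and Rh2-30 mg/kg + Dox lay close together, Rh2-30 mg/kg lay above them, and Dox and Rh2-20 mg/kg + Dox lay far above all 4. The log2 ratio of Itga2b to Control was 2.74 (2.05 to 3.43) in Dox and 3.24 (2.55 to 3.93) with Rh2 at 20 mg/kg plus Dox.

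Itgb3 also pairs with the αv chain in endothelial and other cells. Its counts were 897 in Control, 1010 (20 mg/kg) and 1791 (30 mg/kg) with Rh2 alone, 3266 with Dox alone, and 6834 (20 mg/kg) and 788 (30 mg/kg) with Rh2 plus Dox. In Dox its log2 ratio to Control was 1.85 (1.17 to 2.53), the smallest of the 10 genes in that comparison and the only member below 4-fold there. With Rh2 at 20 mg/kg added the ratio was 2.79 (2.11 to 3.47). In Dox the ratio of Itgb3 was below that of Itga2b by more than counting error, while the wider intervals overlap. The summed level of 9 endothelial markers in CPM was 2085 in Control, 1904 (20 mg/kg) and 1820 (30 mg/kg) with Rh2 alone, 1980 with Dox alone, and 2012 (20 mg/kg) and 1736 (30 mg/kg) with Rh2 plus Dox, with none at 0.

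Gp1ba, Gp1bb, Gp9 and Gp5 encode the von Willebrand factor receptor. Gp1ba is the chain that binds von Willebrand factor, Gp1bb is bonded to it, Gp9 is needed for the complex to reach the surface, and Gp5 is a further subunit that thrombin cuts. Their genes lie at chr11:70639102-70643986, chr16:18620319-18622403, chr6:87776131-87779786 and chr16:30307685-30310781. Gp1ba had counts of 102 in Control, 152 (20 mg/kg) and 429 (30 mg/kg) with Rh2 alone, 1171 with Dox alone, and 1781 (20 mg/kg) and 99 (30 mg/kg) with Rh2 plus Dox. Its counts in Rh2-30 mg/kg + Dox and in Control were nearly alike, and its Rh2-30 mg/kg count lay between those and the count in Dox. The log2 ratio of Gp1ba to Control was 1.88 (1.14 to 2.62) in Rh2-30 mg/kg, the largest of the 10 in that library, 3.50 (2.77 to 4.24) in Dox and 3.98 (3.25 to 4.72) with Rh2 at 20 mg/kg plus Dox.

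Gp5 counts were 54 in Control, 61 (20 mg/kg) and 153 (30 mg/kg) with Rh2 alone, 560 with Dox alone, and 797 (20 mg/kg) and 50 (30 mg/kg) with Rh2 plus Dox. The 3 lowest libraries lay between 50 and 61, so their order is not resolved by counting. Gp5 reached a log2 ratio to Control of 3.35 (2.56 to 4.14) in Dox and 3.73 (2.95 to 4.52) with Rh2 at 20 mg/kg plus Dox. Gp9 counts were 46 in Control, 23 (20 mg/kg) and 65 (30 mg/kg) with Rh2 alone, 301 with Dox alone, and 575 (20 mg/kg) and 26 (30 mg/kg) with Rh2 plus Dox. Gp9 was the only member more than 2-fold below Control in Rh2-20 mg/kg, at a log2 ratio of -1.10 (-2.08 to -0.11), which rests on 23 counts against 46. In Dox its ratio was 2.68 (1.88 to 3.49) and with Rh2 at 20 mg/kg added 3.49 (2.69 to 4.29).

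Gp1bb counts were 35 in Control, 29 (20 mg/kg) and 67 (30 mg/kg) with Rh2 alone, 181 with Dox alone, and 381 (20 mg/kg) and 33 (30 mg/kg) with Rh2 plus Dox. Its annotated span shares 593 bases with the neighbouring gene Septin5 (Sept5 in the table, at chr16:18621811-18629938), and the sources used here do not state whether the counting used strand, so its counts are uncertain. Sept5 itself had counts of 620 in Control, 544 (20 mg/kg) and 784 (30 mg/kg) with Rh2 alone, 707 with Dox alone, and 668 (20 mg/kg) and 537 (30 mg/kg) with Rh2 plus Dox, a far narrower range. In CPM its level was highest in Dox, at 8.41, with 8.27 in Rh2-30 mg/kg. The part of Septin5 reads in the Gp1bb counts was not tested. Gp1bb had the order of the other receptor genes in its upper 3 libraries, with log2 ratios to Control of 2.34 (1.49 to 3.20) in Dox and 3.29 (2.45 to 4.13) with Rh2 at 20 mg/kg plus Dox. Within the complex, the ratios in Dox were larger for Gp1ba and Gp5 than for Gp1bb and Gp9, with wider intervals that overlap.

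Treml1 encodes a receptor of the alpha granule membrane that moves to the platelet surface on activation, and Tubb1 encodes the β-tubulin of the microtubule ring that gives platelets their disc shape. Treml1 (chr17:48359916-48367176) had counts of 44 in Control, 30 (20 mg/kg) and 57 (30 mg/kg) with Rh2 alone, 218 with Dox alone, and 451 (20 mg/kg) and 18 (30 mg/kg) with Rh2 plus Dox. Its lowest library was Rh2-30 mg/kg + Dox, with 18 counts, and its log2 ratio to Control there was -1.33 (-2.37 to -0.29). In Dox the ratio was 2.28 (1.46 to 3.10), and with Rh2 at 20 mg/kg added it was 3.21 (2.40 to 4.02). Tubb1 (chr2:174450595-174458380) had counts of 250 in Control, 241 (20 mg/kg) and 809 (30 mg/kg) with Rh2 alone, 2903 with Dox alone, and 4625 (20 mg/kg) and 182 (30 mg/kg) with Rh2 plus Dox. It had the largest ratio to Control of the 10 genes both in Dox, at log2 3.52 (2.82 to 4.22), and in Rh2-20 mg/kg + Dox, at log2 4.07 (3.37 to 4.77). Set beside Control these are 11.5-fold and 16.8-fold.

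To compare the genes with each other, levels were taken as FPKM, the authors' unit per kilobase of transcript. Pf4 had the highest FPKM of the 10 genes in all 6 libraries, with 7.93 in Control, 9.89 (20 mg/kg) and 14.5 (30 mg/kg) with Rh2 alone, 41.4 with Dox alone, and 52.4 (20 mg/kg) and 6.11 (30 mg/kg) with Rh2 plus Dox. Ppbp was second in all 6, with 2.43 in Control, 1.98 (20 mg/kg) and 6.09 (30 mg/kg) with Rh2 alone, 14.6 with Dox alone, and 28.1 (20 mg/kg) and 1.62 (30 mg/kg) with Rh2 plus Dox. Places 3 to 5 were held by Itga2b, Itgb3 and Tubb1 in all libraries, and their order changed. Tubb1 had place 5 in Control, Rh2-20 mg/kg and Rh2-30 mg/kg + Dox and place 3 in the other libraries, where it stood above both integrin chains, and its FPKM went from 0.769 in Rh2-30 mg/kg + Dox to 19.7 in Rh2-20 mg/kg + Dox. The receptor genes and Treml1 were the lowest 5 throughout, and Gp1bb had the lowest FPKM in 5 libraries, the lowest of them 0.127 (Rh2-20 mg/kg) and the highest 1.74 (Rh2-20 mg/kg + Dox). Treml1 was the lowest in the remaining library, Rh2-30 mg/kg + Dox, at 0.115.

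Dox was first set against Control. The median log2 ratio over the 10 genes was 2.62, against 0.00 over all tested genes, and the ratios went from 1.85 for Itgb3 to 3.52 for Tubb1. All 10 were at least 2-fold higher in Dox, where 5.44% of all tested genes were, and 9 were at least 4-fold higher, where 2.07% were. This contrast was known when the genes were chosen, so the counts are a description. All 10 ratios were above 0 by the wider interval, and also with a larger dispersion estimate, by another method, whose half-width is 1.18 on the log2 scale in place of 0.67. Here and below, counts of members beyond an interval are a description and no test, since the members were chosen with these values known. The share of all tested genes beyond the same intervals was not taken. Erythroid genes were also higher in this library, with a median log2 ratio of 1.39 over 9 genes of which 8 were above 0, and so were the 4 atrial genes, with a median of 6.07. The part of either in the platelet gene levels was not tested.

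Rh2-20 mg/kg + Dox had still more of these transcripts. Against Control all 10 were at least 4-fold higher, where 2.00% of tested genes were, and at least 2-fold higher, where 5.13% were, with a median log2 ratio of 3.37 and a range of 2.65 to 4.07. Against Dox alone the median was 0.68, with ratios from 0.29 for Pf4 to 0.95 for Gp1bb. All 10 ratios to Dox were above 0 by counting error, 5 by the wider interval (Ppbp, Itgb3, Gp1bb, Gp9 and Treml1) and 0 with the larger dispersion. None passed 2-fold, where 3.08% of tested genes were at least 2-fold higher. The erythroid genes went the other way in this comparison, with a median log2 ratio of -0.94 over 9 genes. The 4 atrial genes had a median of 0.08, with ratios from -0.09 to 1.14. Neutrophil markers were higher, with a median log2 ratio of 1.30 over the 8 of 10 that were tested. Against Rh2 at 20 mg/kg alone, Rh2-20 mg/kg + Dox had all 10 genes at least 4-fold higher, where 1.46% of tested genes were, with a median of 3.67. The largest of these ratios was that of Gp9, 4.59 (3.68 to 5.49), and the smallest that of Pf4, 2.40 (1.72 to 3.09). In that comparison the median log2 ratio was 1.02 for the erythroid, 2.90 for the atrial and 1.33 for the neutrophil markers. Against Control it was 0.57 for the erythroid, 6.32 for the atrial and 2.15 for the neutrophil markers in this library. Their part in the platelet gene levels was not tested.

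Rh2-30 mg/kg + Dox showed no such excess. Against Control the median log2 ratio of the 10 genes was -0.31, against -0.01 over all tested genes, and no ratio was above -0.10, that of Gp1ba. None was at least 2-fold higher, where 4.08% of tested genes were, and Treml1 was at least 2-fold lower, where 6.85% were. By the wider interval Treml1 alone was below Control, and with the larger dispersion no gene was. All 9 erythroid genes were at least 2-fold lower than in Control, with a median of -1.27. Of the 4 atrial genes, 3 were lower than in Control and 1 (Nppa) was higher. Their median was -0.98 when Sln, at 0 counts, was set to a floor of 3. Against Dox alone all 10 genes were at least 4-fold lower, where 2.58% of tested genes were, with a median of -3.32. The ratios went from -4.04 (-4.75 to -3.33) for Tubb1 to -2.10 (-2.78 to -1.41) for Itgb3, and all 10 were below 0 with either dispersion. All 9 erythroid genes were lower as well, with a median of -2.73, and so were all 4 atrial genes, with a median of -7.23 when Sln, at 0 counts, was set to a floor of 3. Their part in the lower platelet gene levels was not tested.

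Against Rh2 at 30 mg/kg alone, Rh2-30 mg/kg + Dox had 9 of the 10 genes at least 2-fold lower, where 12.1% of tested genes were. Tubb1 alone was at least 4-fold lower, where 4.61% were, at -2.02 (-2.74 to -1.31), and Gp1ba came next, at -1.98 (-2.73 to -1.24). Gp1bb was the member that did not pass 2-fold, at -0.89 (-1.79 to 0.02). The median over the 10 was -1.33. By the wider interval 9 genes were lower, and with the larger dispersion 5, again without the share of all tested genes. All 4 atrial genes were also lower in this pair, by far more, with a median of -9.73 on the same floor. All 9 erythroid genes were lower, with a median of -1.36, as were all 6 B cell markers at -2.73 and 9 of 10 macrophage markers, whose median over the 10 was -1.25. The part of these in the lower platelet gene levels was not tested.

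The Rh2 libraries without Dox differed from each other. In Rh2-20 mg/kg the median log2 ratio to Control was -0.24, no gene was at least 2-fold higher, where 3.35% of tested genes were, and Gp9 was at least 2-fold lower, where 2.80% were. Gp9 was also the only gene outside the wider interval, and with the larger dispersion none was. In Rh2-30 mg/kg the median was 0.86, against 0.03 over all tested genes, and 4 of the 10 genes were at least 2-fold higher, where 8.48% of tested genes were. These 4 were Ppbp, Gp1ba, Gp5 and Tubb1, at 1.18, 1.88, 1.31 and 1.51. The smallest ratios were those of Treml1, 0.18 (-0.70 to 1.07), and Gp9, 0.31 (-0.56 to 1.18), both within their counting error. By the wider interval 7 genes were above Control, and with the larger dispersion 3, a description without the share of all tested genes. This library also had the highest atrial level of the 6, with a median log2 ratio of 8.74 over the 4 genes, and the highest summed level of 6 B cell markers, 36.7 CPM against 7.43 to 14.9 in the others. All 10 macrophage markers were above Control, with a median log2 ratio of 0.65. The part of these in the platelet gene levels was not tested. The platelet genes themselves were highest elsewhere.

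**Figure D2:**
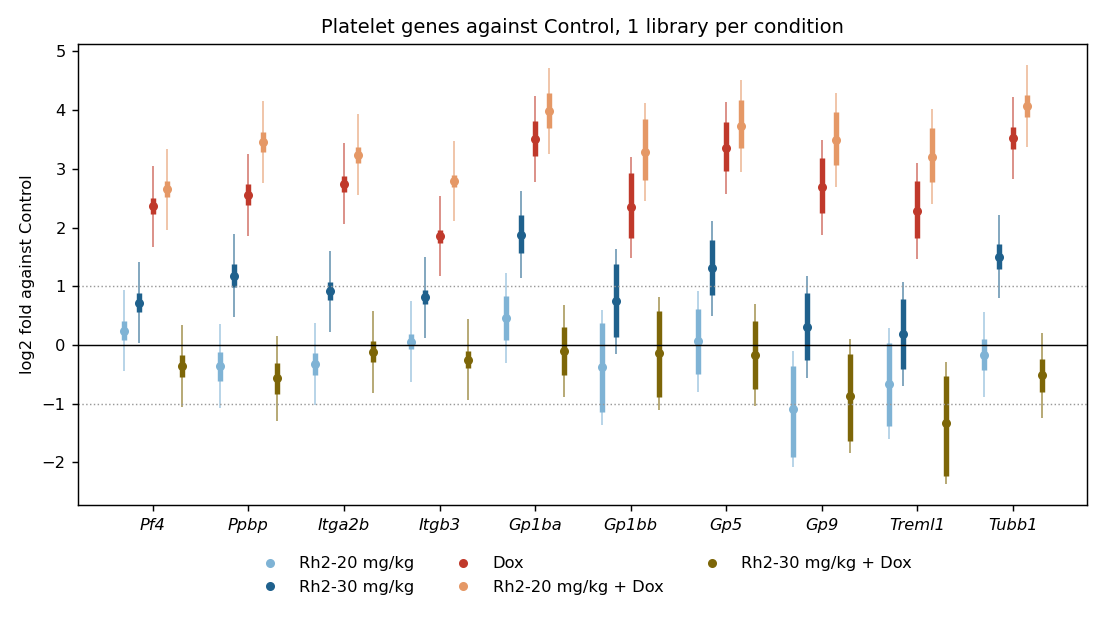
Log2 ratio to Control of each of the 10 platelet genes in the other 5 libraries, as points, with thick bars for the 95% interval from counting error and thin bars for the interval that adds the dispersion between libraries. Dotted lines mark 2-fold. Points of Dox and Rh2-20 mg/kg + Dox lie from 1.85 to 4.07 for all genes, and those of Rh2-30 mg/kg + Dox lie from -1.33 to -0.10.

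Neighbouring libraries in the order of levels could not all be separated. The counts of genes given for each step are a description, without the share of all tested genes. The step from Dox down to Rh2-30 mg/kg was beyond the wider interval for all 10 genes, with log2 ratios from 1.04 for Itgb3 to 2.38 for Gp9. The step from Rh2-20 mg/kg + Dox down to Dox was beyond it for 5 genes. The step from Rh2-30 mg/kg to the next library, which was Rh2-20 mg/kg for Pf4, Itgb3, Gp1ba and Gp5 and Control for the other 6, was beyond it for 6 genes (Ppbp, Itga2b, Itgb3, Gp1ba, Gp5 and Tubb1). Among the 3 lowest libraries no step was beyond the wider interval from a library to its neighbour for any gene. Over more than 1 step, Treml1 in Rh2-30 mg/kg + Dox and Gp9 in Rh2-20 mg/kg were below Control by more than the wider interval.

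**Figure D3:**
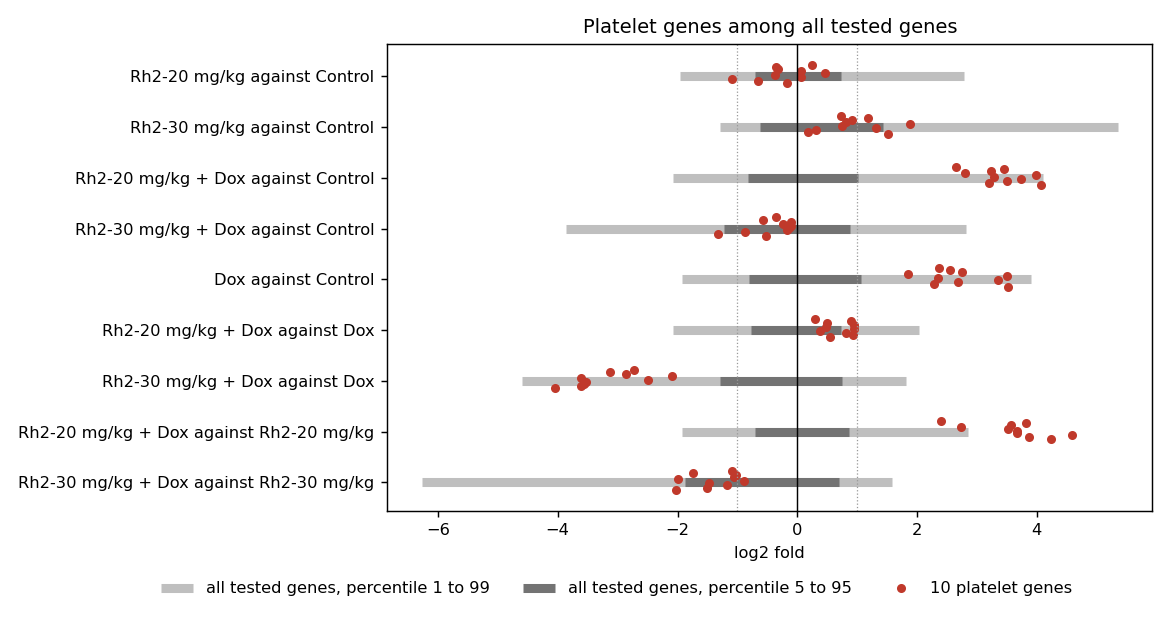
Log2 ratios of the 10 platelet genes in 9 comparisons of 2 libraries, as points moved apart vertically for legibility, over bars that span percentiles 1 to 99 and 5 to 95 of all 18328 tested genes. The points lie to the right of the 5 to 95 bar in Dox against Control and in both Rh2-20 mg/kg + Dox comparisons with a library without Dox, and to its left in Rh2-30 mg/kg + Dox against Dox, where the ratios go from -4.04 to -2.10.

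Put as the ratio of a library with Dox to the library without it at the same Rh2 dose, the 10 genes changed sign between doses. For Tubb1 this log2 ratio was 3.52 without Rh2, 4.23 at 20 mg/kg and -2.02 at 30 mg/kg. For Gp9 it was 2.68 without Rh2, 4.59 at 20 mg/kg and -1.18 at 30 mg/kg, and for Pf4 2.36 without Rh2, 2.40 at 20 mg/kg and -1.08 at 30 mg/kg. All 10 ratios were above 0 without Rh2 and at 20 mg/kg, and all 10 were below 0 at 30 mg/kg. At least 2-fold higher at both lower doses and at least 2-fold lower at 30 mg/kg were 9 of the 10 genes and 179 of the 18328 tested genes, or 0.977%. With 1 library per condition the change with dose could not be tested, and a library that stands apart cannot be told apart from a dose.

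The 3 libraries with Dox were also set against the 3 without, which differ on each side in Rh2 dose. For the 10 genes the median log2 difference from this fit was 2.21, as a description. In none of the 10 did the 3 Dox libraries all lie above the other 3, as Rh2-30 mg/kg + Dox was among the lowest for each, whereas the 3 lay above in 7.85% of all tested genes. With edgeR's quasi-likelihood test and p-values adjusted by Benjamini and Hochberg, 5 of 18328 genes passed an adjusted p of 0.05 in this fit, 3 higher (0.0164%) and 2 lower (0.0109%) with Dox. DESeq2's Wald test called 425.

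Further platelet and megakaryocyte genes were taken from lists of receptors, signalling proteins, granule proteins and transcription factors, 53 genes of which 52 were tested. None passed the quasi-likelihood test after adjustment, with 17 at an unadjusted p under 0.05 (16 higher, where 4.2% of all tested genes were, and 1 lower, where 5.91% were), and the smallest adjusted p was 0.328. DESeq2's Wald test called 2, the collagen receptor Gp6 and the granule protein Mmrn1, of which Mmrn1 was named after its values were seen. Of the 52 tested, 19 had the platelet order, where 2.26% of all tested genes had it. That order was read from the members in these same libraries, and the lists were chosen with earlier results known. Counts of listed genes with the order are therefore a description. The lists mark 10 genes as little used by other cells, and of the 9 of these that were tested 7 had the platelet order. Their median log2 ratio to Control was 2.80 with Dox alone, 3.02 (20 mg/kg) and 0.08 (30 mg/kg) with Rh2 plus Dox, and -0.03 (20 mg/kg) and 0.88 (30 mg/kg) with Rh2 alone. The other 43 genes, which endothelial cells, leukocytes or other cells also use, had medians of 0.40 with Dox alone and 0.54 with Rh2 at 20 mg/kg plus Dox.

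Of the 17 receptors tested outside the member list, 7 had the platelet order. These were Gp6, Clec1b, P2ry12, P2rx1 and F2rl2, and also Cd9 and Cd226, which other cells use and which were named after their values were seen. Gp6 binds collagen, and its counts were 26 in Control, 36 (20 mg/kg) and 93 (30 mg/kg) with Rh2 alone, 366 with Dox alone, and 502 (20 mg/kg) and 32 (30 mg/kg) with Rh2 plus Dox. Clec1b, the receptor for podoplanin, had counts of 180 in Control, 115 (20 mg/kg) and 369 (30 mg/kg) with Rh2 alone, 1390 with Dox alone, and 2328 (20 mg/kg) and 240 (30 mg/kg) with Rh2 plus Dox. P2ry12, an ADP receptor and the target of clopidogrel, had counts of 241 in Control, 255 (20 mg/kg) and 505 (30 mg/kg) with Rh2 alone, 1694 with Dox alone, and 1973 (20 mg/kg) and 266 (30 mg/kg) with Rh2 plus Dox. Its 3 libraries at the bottom were nearly level. P2rx1, an ATP-gated channel, had log2 ratios to Control of 2.88 in Dox and 3.80 with Rh2 at 20 mg/kg plus Dox, and F2rl2, a thrombin receptor subunit of mouse platelets, had 2.61 and 3.02. F2rl3, the thrombin receptor that signals in mouse platelets, was the exception among the receptors marked as little used by other cells. It had its highest count in Rh2-30 mg/kg. The counts of F2rl3 were 14 in Control, 19 (20 mg/kg) and 53 (30 mg/kg) with Rh2 alone, 31 with Dox alone, and 19 (20 mg/kg) and 29 (30 mg/kg) with Rh2 plus Dox.

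Among signalling genes, Rgs18, a regulator of G proteins, had counts of 197 in Control, 157 (20 mg/kg) and 311 (30 mg/kg) with Rh2 alone, 1452 with Dox alone, and 1809 (20 mg/kg) and 113 (30 mg/kg) with Rh2 plus Dox. Gnaz, a G protein α subunit, had the platelet order at lower levels, at counts of 45 in Control, 24 (20 mg/kg) and 56 (30 mg/kg) with Rh2 alone, 68 with Dox alone, and 133 (20 mg/kg) and 16 (30 mg/kg) with Rh2 plus Dox. Alox12, the platelet lipoxygenase, had counts of 1480 in Control, 1076 (20 mg/kg) and 1188 (30 mg/kg) with Rh2 alone, 2906 with Dox alone, and 3714 (20 mg/kg) and 1143 (30 mg/kg) with Rh2 plus Dox, so it was higher in both upper Dox libraries, but its Control count was above that of Rh2-30 mg/kg. F5, coagulation factor V, had counts of 546 in Control, 659 (20 mg/kg) and 2344 (30 mg/kg) with Rh2 alone, 5438 with Dox alone, and 10927 (20 mg/kg) and 456 (30 mg/kg) with Rh2 plus Dox. The log2 ratios of F5 to Control were 3.30 in Dox and 4.18 with Rh2 at 20 mg/kg plus Dox. Thbs1, thrombospondin, which many cells make, had counts of 3832 in Control, 2091 (20 mg/kg) and 4090 (30 mg/kg) with Rh2 alone, 5605 with Dox alone, and 12783 (20 mg/kg) and 1163 (30 mg/kg) with Rh2 plus Dox. The granule gene Slc35d3 had 6 to 16 counts and did not pass the filter. Vwf, the ligand of the glycoprotein Ib complex, is made mainly by endothelium and was named after its values were seen. It had counts of 21568 in Control, 20447 (20 mg/kg) and 51646 (30 mg/kg) with Rh2 alone, 28690 with Dox alone, and 46234 (20 mg/kg) and 19250 (30 mg/kg) with Rh2 plus Dox, with its highest value in Rh2-30 mg/kg.

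Among transcription factors, Gata1, which erythroid cells also use, had counts of 8 in Control, 4 (20 mg/kg) and 8 (30 mg/kg) with Rh2 alone, 58 with Dox alone, and 58 (20 mg/kg) and 7 (30 mg/kg) with Rh2 plus Dox, and was nearly level between Dox and Rh2-20 mg/kg + Dox. Gfi1b, another factor of both lineages, had counts of 0 in Control, 0 (20 mg/kg) and 11 (30 mg/kg) with Rh2 alone, 43 with Dox alone, and 21 (20 mg/kg) and 0 (30 mg/kg) with Rh2 plus Dox. Against Control, taken at a floor of 3 counts per library, Gfi1b was at least 14.2-fold higher in Dox and at least 6.36-fold higher in Rh2-20 mg/kg + Dox. Of the 10 factors listed, 3 were at least 2-fold higher than Control with Dox alone, where 5.44% of tested genes were. With Rh2 at 20 mg/kg plus Dox 3 were, where 5.13% of tested genes were. The median log2 ratio of the list was 0.19 and 0.27 in these libraries.

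**Figure D4:**
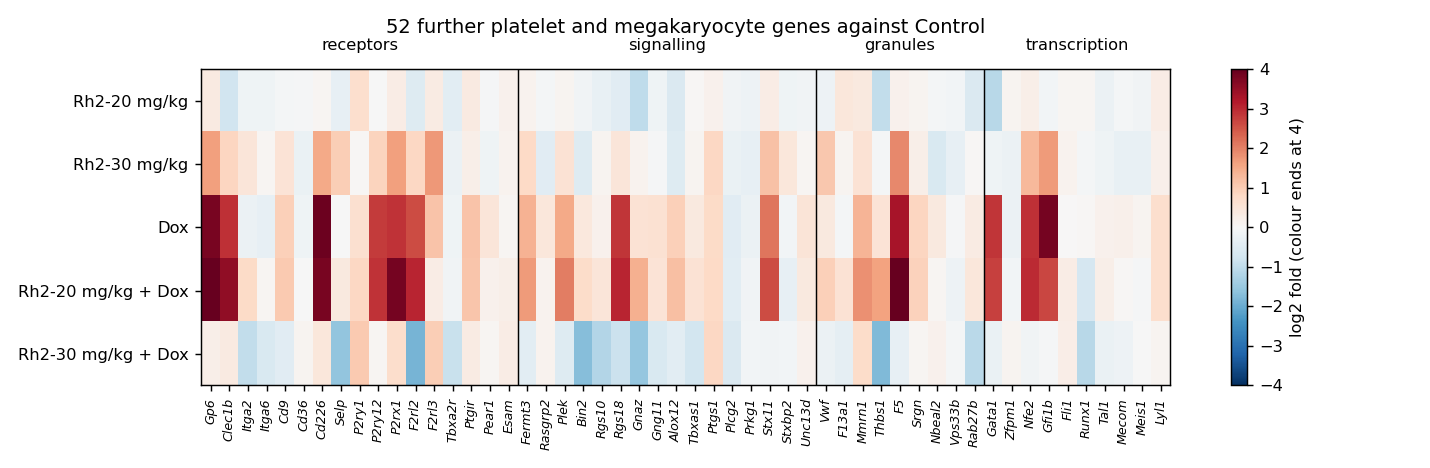
Log2 ratio to Control of 52 further platelet and megakaryocyte genes (columns, grouped by role) in the other 5 libraries (rows), with red for higher and blue for lower than Control and the colour scale ending at 4. The columns with deep red in both Dox and Rh2-20 mg/kg + Dox, such as those of Gp6, Clec1b and F5, are pale or blue in Rh2-30 mg/kg + Dox. Counts below a floor of 3 were set to 3, so ratios of Gfi1b depend on that floor since its Control count is 0.

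The genes most like the 10 in pattern were sought among 15190 genes that were on none of the platelet lists used here and averaged at least 50 counts. Absence from these lists does not mean that platelets do not use a gene. Likeness was the root mean square difference, over the 6 libraries, between a gene's centred log2 level and the mean centred log2 level of the 10 genes. The closest were Slamf1 at 0.23, Treml2 at 0.28, Tmem40 at 0.30, Nrgn at 0.31, Slc2a3 and Lrrn3 at 0.32 and Slc6a4 at 0.37, followed by Prokr1 at 0.53, I830077J02Rik at 0.58 and Ccdc92 at 0.61. Slamf1 had counts of 108 in Control, 108 (20 mg/kg) and 257 (30 mg/kg) with Rh2 alone, 1056 with Dox alone, and 1470 (20 mg/kg) and 127 (30 mg/kg) with Rh2 plus Dox. Treml2, of the same receptor family as Treml1, had counts of 52 in Control, 78 (20 mg/kg) and 167 (30 mg/kg) with Rh2 alone, 662 with Dox alone, and 942 (20 mg/kg) and 61 (30 mg/kg) with Rh2 plus Dox. Slc6a4, the serotonin transporter, had counts of 101 in Control, 66 (20 mg/kg) and 373 (30 mg/kg) with Rh2 alone, 637 with Dox alone, and 1255 (20 mg/kg) and 93 (30 mg/kg) with Rh2 plus Dox, and was 6.23-fold higher in Dox than in Control. Tmem40 had counts of 30 in Control, 18 (20 mg/kg) and 48 (30 mg/kg) with Rh2 alone, 249 with Dox alone, and 306 (20 mg/kg) and 21 (30 mg/kg) with Rh2 plus Dox. Nrgn had counts of 106 in Control, 79 (20 mg/kg) and 198 (30 mg/kg) with Rh2 alone, 1074 with Dox alone, and 1077 (20 mg/kg) and 76 (30 mg/kg) with Rh2 plus Dox. In CPM Nrgn was higher in Dox, at 12.8, than in Rh2-20 mg/kg + Dox, at 11.7, unlike the 10 genes. Likeness over 6 libraries is a description of levels.

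Markers of other blood and heart cells did not share the full pattern. Of 9 erythroid genes, 8 were highest in Dox, as 18.8% of all tested genes were, all 9 were lowest in Rh2-30 mg/kg + Dox and 1 had the platelet order. The erythroid gene Alas2 had counts of 16052 in Control, 12391 (20 mg/kg) and 19275 (30 mg/kg) with Rh2 alone, 64799 with Dox alone, and 36857 (20 mg/kg) and 4645 (30 mg/kg) with Rh2 plus Dox. Of the 8 neutrophil genes tested, 7 were highest in Rh2-20 mg/kg + Dox, as the platelet genes were, but none was lowest in Rh2-30 mg/kg + Dox. The summed neutrophil level in CPM was 16.5 in Control, 30.4 (20 mg/kg) and 20.1 (30 mg/kg) with Rh2 alone, 18.8 with Dox alone, and 46.8 (20 mg/kg) and 27.4 (30 mg/kg) with Rh2 plus Dox, with up to 3 of the 10 genes at 0 in a library (3 in Control). All 4 atrial genes were highest in Rh2-30 mg/kg, as 26.1% of all tested genes were. Myl7, the atrial myosin light chain, had counts of 56 in Control, 1187 (20 mg/kg) and 52896 (30 mg/kg) with Rh2 alone, 9134 with Dox alone, and 10613 (20 mg/kg) and 19 (30 mg/kg) with Rh2 plus Dox, so the 3 libraries with the most platelet transcripts were also the 3 with the most of Myl7. How far chamber tissue and blood content bear on the platelet gene levels was not tested.

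**Figure D5:**
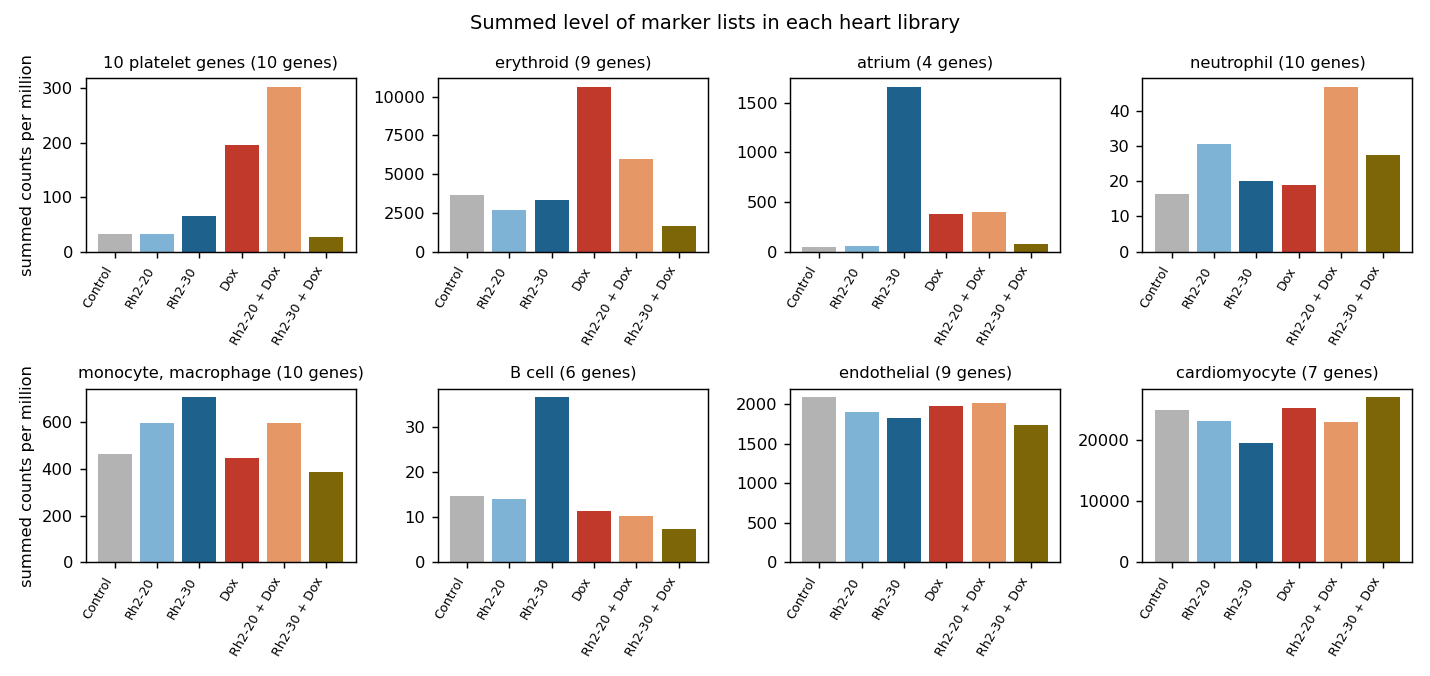
Summed TMM-normalized CPM of the 10 platelet genes and of 7 lists of cell type markers in each heart library, as bars from 0, each panel with its own scale. The platelet genes are highest in Rh2-20 mg/kg + Dox (303), the erythroid genes in Dox (10646), the atrial genes in Rh2-30 mg/kg (1662) and the neutrophil genes in Rh2-20 mg/kg + Dox (46.8).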

How the data were processed

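The authors trimmed the reads (Trimmomatic, after bcl2fastq 2.20.0), aligned them to mm10 with HISAT2 2.1.0 and estimated abundance with StringTie 2.1.3b, as the submitters' processing notes and the study's methods give it. The authors deposited whole-number read counts per gene without normalization, FPKM (scaled to transcript length and library size) and TPM. The deposited counts were used throughout, the authors' FPKM values for levels between genes and as an alternative, and the deposited TPM values were not used. Reads of overlapping genes were divided by the authors' tools, and strand use is not given in the sources used here.

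Samples were grouped by their labels, 1 library per condition. The main tool was edgeR 4.0.16 under R 4.3.3 (TMM, mean of at least 10 counts), with DESeq2 1.42.0 as an alternative. Plots used Python 3.11.15 with matplotlib 3.10.9. Log2 ratios of 2 libraries were taken after adding a prior count of 0.5. The 95% interval of each was the exact conditional binomial one for its pair of counts, and wider ones added a common dispersion of 0.0285 (coefficient of variation 0.169), estimated by edgeR's robust deviance method from all 6 libraries as 1 group. An added alternative, chosen after seeing the data, used a dispersion of 0.0864 by the Cox-Reid method. Intervals cover counting error and this dispersion, not variation between animals. The dispersion is the same for all genes, so it is not fitted to genes that differ more between libraries. Called means past 2-fold, or 4-fold where stated. The 3 libraries with Dox were compared with the 3 without by the two-sided quasi-likelihood test of edgeR, adjusted by Benjamini and Hochberg over 18328 genes. The p-values of this fit measure the spread between pooled libraries that differ in Rh2 dose, so that spread includes any difference between doses.

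The members and lists were chosen with earlier results of these data known. Named were all members, the listed platelet genes marked as little used by other cells, the 2 genes of each list with the widest range, and the 10 genes most like the members in pattern. Exceptions are stated where they occur, and 1 listed gene is not reported here. RefSeq gave positions (10 members matched by gene ID) and promoters (9 matched). The steps were tested on simulated data. Alternatives were DESeq2's size factors and Wald test, library totals alone, a prior count of 2, FPKM plus 0.1, leaving out Gp1bb, no filter on low counts, a mean of at least 100 counts, Rh2 dose as a term, and each library left out in turn.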

Additional observations from a re-analysis of the deposited data

Results flagged for a closer look

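For each of the 10 platelet genes the ratio of the library with Dox to that without it was above 0 at Rh2 doses of 0 and 20 mg/kg and below 0 at 30 mg/kg. The gap between the highest and the lowest of the 3 log2 ratios was 3.49 for Pf4, 5.56 for Ppbp, 4.58 for Itga2b, 3.79 for Itgb3, 5.51 for Gp1ba, 4.55 for Gp1bb, 5.15 for Gp5, 5.77 for Gp9, 5.37 for Treml1 and 6.26 for Tubb1. Each condition was 1 library, so the difference between doses was not tested. Of all tested genes, 0.977% were at least 2-fold higher with Dox at both lower Rh2 doses and at least 2-fold lower at 30 mg/kg.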

How the results depend on the processing

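With 1 library per condition no value had a replicate, and the levels of single genes rest on 18 to 6834 counts. The median log2 ratio of the 10 genes kept its direction in all 9 comparisons of 2 libraries under DESeq2's size factors, library totals alone, a prior count of 2, FPKM plus 0.1 and without Gp1bb. It moved by more than its limit in 3 cases. For Rh2-20 mg/kg + Dox against Dox it was 0.547 without Gp1bb, in place of 0.677. With FPKM plus 0.1 it was -2.99 in place of -3.32 for Rh2-30 mg/kg + Dox against Dox, and 3.37 in place of 3.67 for Rh2-20 mg/kg + Dox against Rh2-20 mg/kg. Of single-gene ratios, FPKM plus 0.1 moved 54 of 306 and library totals alone 18 of 306. The cause was not tested.

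In the fit of libraries with Dox against libraries without, the 5 genes past an adjusted p of 0.05 by edgeR's quasi-likelihood test became 425 by DESeq2's Wald test, 0 with Rh2 dose as a term, which pairs the libraries of a dose (1598 genes at an unadjusted p under 0.05), and 0 to 14 when a library was left out. The count was 0 without Control, Rh2-20 mg/kg, Rh2-20 mg/kg + Dox or Dox, 3 without Rh2-30 mg/kg and 14 without Rh2-30 mg/kg + Dox, with Rgs18 as the only listed platelet gene. The median log2 difference of the 10 genes went from 1.56 without Rh2-20 mg/kg + Dox to 2.73 without Rh2-30 mg/kg + Dox.

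Among only the 13961 genes of a mean of at least 100 counts, fewer genes passed 2-fold in each comparison. For Rh2-20 mg/kg against Control the count of genes at least 2-fold higher went from 614 to 94 and that of genes at least 2-fold lower from 513 to 67. In the same order, against Control, the counts went from 1555 to 519 and 299 to 54 for Rh2-30 mg/kg, 997 to 295 and 656 to 171 for Dox, 940 to 266 and 663 to 197 for Rh2-20 mg/kg + Dox and 748 to 176 and 1255 to 551 for Rh2-30 mg/kg + Dox. Against Dox, for Rh2-20 mg/kg + Dox they went from 564 to 73 and 630 to 134 and for Rh2-30 mg/kg + Dox from 505 to 70 and 1348 to 572. Against the same Rh2 dose alone, for Rh2-20 mg/kg + Dox they went from 750 to 188 and 526 to 154 and for Rh2-30 mg/kg + Dox from 440 to 137 and 2225 to 1019.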
